A study of Homo sapiens with 6 samples.

Results

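The 3′ UTRs described here belong to protein-coding transcripts and gave short RNA from the sense strand alone. A 3′ UTR was taken when its row named a coding transcript, when its sense value was above 0 in Caco2 WT or in PIWIL2 KO, and when its antisense value was 0 in both. Rows with the same chromosome, start and strand were counted once, by the row with the highest mean. This left 623 distinct 3′ UTRs, from 1212 rows, out of 1500 distinct coding 3′ UTRs and 1953 distinct regions in the table. Distinct refers to the start, and some 3′ UTRs of 1 gene with different starts overlap, so they can share reads. Of the other coding 3′ UTRs, 798 stood at 0 in every column and 79 had some antisense value. The sense and antisense values themselves chose the 623, so that their presence on the sense strand is a description and was not tested. The choice also left out 19 rows of 1 block of transcript accessions, whose sense values added up to 186.65 CPM for Caco2 WT and 32.02 CPM for PIWIL2 KO.

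The study sequenced short RNAs of Caco2 cells, a human colon epithelial line in wide use, in 3 Caco2 WT samples and 3 PIWIL2 KO samples, to see which short RNAs depend on the PIWI protein PIWIL2. The PIWIL2 KO cells were made from Caco2 with CRISPR/Cas9, and they descend from a single clone, which according to the study's supplement was the only one to survive selection and which kept an unmodified copy of PIWIL2 beside the edited one. By the study's qRT-PCR and western blot, PIWIL2 in this clone was lowered in part and not gone. Any trait of that clone and the lowering of PIWIL2 cannot be told apart. No age, treatment or time point separates the groups in the labels. The table gives 1 value per genotype and strand, in CPM, which are counts scaled to the number of reads mapped uniquely to the genome, so there is no replicate error and no test between genotypes. PIWIL2 itself was not analysed here, so the genotype labels were not checked against it.

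A 3′ UTR is the stretch of an mRNA behind the stop codon, where microRNAs and RNA-binding proteins bind and where many decay signals lie. Short sense RNA from it can be a fragment left by mRNA decay, a product of a small RNA gene that lies inside it, or, in germ cells, a piRNA cut from the mRNA by the PIWI machinery. PIWI proteins bind such piRNAs and find their targets through base pairing with piRNAs antisense to them.

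Small RNA genes were searched for inside the 3′ UTRs on the same strand, and the sequences of the better covered ones are shown first because they mark where in the 3′ UTR a known short RNA is encoded. The annotation put such a gene wholly inside 16 of the 613 3′ UTRs that could be placed, a share of 2.61%. Among the 772 placed coding 3′ UTRs at 0 in every column the share was 0.518%, from 4, and among the 78 with antisense values there was none. Of the 16, 8 held an annotated microRNA gene, 4 a gene of the class that holds Y RNAs and signal recognition RNA copies, 2 a small nuclear RNA gene and 2 a small nucleolar RNA gene. The difference in shares was not tested.

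PAQR5 encodes a membrane progestin receptor, and its 3′ UTR at chr15:69696162-69700119 (hg19, plus strand) holds a copy of a Y RNA at chr15:69698780-69698891, which begins 2618 bases behind the start of the 3′ UTR. Y RNAs are small noncoding RNAs bound by the Ro protein and are known to be cut into short fragments. Aligned to the Y RNA gene RNY1, the copy had the same base in 103 of 111 columns (92.8%). The first 30 bases of both are set below each other, read from the reference genome, with bases that are identical in capitals. Of these 30 bases, 28 were the same.
PAQR5 copy, chr15:69698780-69698809, plus strand: GGCTGGTCtGAAGGTAGTGAGTTAgCTCAA
RNY1, chr7:148684311-148684340, minus strand: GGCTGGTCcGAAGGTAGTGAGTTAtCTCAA

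QRFPR, which encodes the receptor of the neuropeptide QRFP, held a Y RNA copy at chr4:122250224-122250325 on the minus strand. Its copy was closest to RNY3, with the same base in 91 of 101 columns (90.1%) and in 27 of the first 30.
QRFPR copy, chr4:122250296-122250325, minus strand: GGCTaGTCCaAGTGCAGTGaTGTTTACAAC
RNY3, chr7:148680847-148680876, plus strand: GGCTgGTCCgAGTGCAGTGgTGTTTACAAC
No row of the table was named after a Y RNA gene. How many reads of RNY1 or RNY3 could also fit these copies was not tested.

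TMEM107 encodes a membrane protein of the ciliary transition zone, and its 3′ UTR at chr17:8076297-8077523 (minus strand, 1227 bases) holds SNORD118. SNORD118 is a small nucleolar RNA that takes part in ribosomal RNA maturation, is 134 bases long here and lies at chr17:8076772-8076905, beginning 618 bases behind the start of the 3′ UTR. Small nucleolar RNAs of its class carry a box C motif, searched for here by the letters TGATGA on the RNA strand and shown in capitals. They were found at bases 55 to 60.
SNORD118 window, chr17:8076834-8076863, minus strand: cagattagaacaTGATGAttggagatgcat
The same letters occurred in 582 of 1458 annotated small nucleolar RNA genes (39.9%) and in 634 of 15134 windows of 134 bases cut from the 3′ UTRs described here (4.19%). The 1458 genes were not limited to the class or the length of SNORD118, so these shares are not matched. A match is a description of the sequence and not of a processing site.

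CBX5, which encodes the heterochromatin protein HP1α, held the microRNA gene MIR3198-2 in its 3′ UTR. The mature microRNA is given from RefSeq (GRCh38.p14), with the seed, bases 2 to 8, in capitals.
hsa-miR-3198: gUGGAGUCcuggggaauggaga
The microRNA genes MIR3614 in TRIM25, MIR1825 in POFUT1 and MIR4657 in PURB lay in 3′ UTRs with at most 0.15 CPM in a row, which is about 2 reads.

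Most of these 3′ UTRs were covered by very few reads, which sets how each value can be read. The low values fell on steps of 0.0777 CPM in Caco2 WT against 0.0738 CPM in PIWIL2 KO, each taken as the worth of 1 read, with 72.6% of 457 and 70.5% of 437 values up to 1 CPM within 0.0055 CPM of a whole number of reads. As reads of a pool, these steps correspond to about 12900000 and 13600000 mapped reads. The study describes its sequencing results as normalized averages of 3 biological replicates, and whether these columns pool or average the libraries was not settled. If they average libraries of unequal depth, a step is not 1 read, and the estimated reads and counting intervals are only approximate. The median 3′ UTR had 0.04 CPM in Caco2 WT against 0.05 CPM in PIWIL2 KO. With both genotypes and all rows of a start summed, 202 of the 623 (32.4%) had 0 to 1 read, 269 (43.2%) had 2 to 3, 121 (19.4%) had 4 to 9, and 31 (4.98%) had 10 or more. At a value of 0, as many as 3 reads remain possible, which is 0.233 CPM for Caco2 WT and 0.221 CPM for PIWIL2 KO.

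The value of a row also depended on how many rows shared its start, since transcripts of 1 gene often end in the same 3′ UTR. For the 334 3′ UTRs with a single row, the commonest value above 0 in Caco2 WT was 0.08 CPM. It was 0.04 CPM for the 143 with 2 rows, 0.03 CPM for the 69 with 3 rows, 0.02 CPM for the 33 with 4, and 0.01 CPM for the 11 with 6. The worth of 1 read divided by the number of rows was 0.0777, 0.0389, 0.0259, 0.0194 and 0.0130 CPM for these classes. The commonest row values thus followed a split of each read over the rows. Some values were under 1 read though no other row shared the start, such as RPL39 at 0.04 CPM in each genotype. Whether reads were also divided over several places of the genome was not tested. Levels are therefore given per row as deposited and, where several rows shared a start, also summed over them for most genes described singly. Sums over gene groups use 1 row per start. In 6 of the 623 the rows were unequal, and 30 starts also had rows outside the choice, mostly of noncoding transcripts, which the sums include. The plot of the commonest value against the number of rows shows this for both genotypes.

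**Figure D1:**
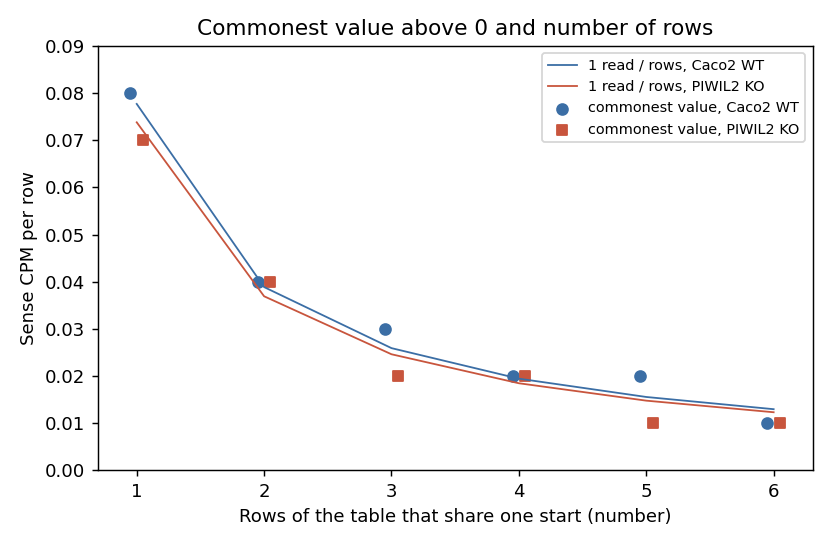
Commonest sense value above 0 (CPM per row, vertical axis) of sense-only coding 3′ UTRs by the number of table rows that share their start (horizontal axis), with Caco2 WT as circles, PIWIL2 KO as squares and lines at the CPM worth of 1 read divided by the number of rows. The Caco2 WT values go from 0.08 CPM with 1 row to 0.01 CPM with 6 rows and stay close to the line.

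The sense short RNA of the 623 3′ UTRs as a whole was slightly lower in PIWIL2 KO by either way of counting. By 1 row per start it came to 88.88 CPM in Caco2 WT, about 1144 reads, and to 83.13 CPM in PIWIL2 KO, about 1126 reads. The log2 ratio, PIWIL2 KO over Caco2 WT, was −0.10, with an exact 95% counting interval from −0.22 to 0.02, which holds 0. With all rows of a start summed the sums were 120.1 CPM, about 1546 reads, against 110.68 CPM, about 1500 reads, and the log2 ratio of −0.12 had an interval from −0.22 to −0.01 that does not hold 0. Such intervals cover counting error only, and PCR copies cannot be removed from reads that carry no molecular identifier. The rest of the table summed to a log2 ratio of 0.44 (0.42 to 0.45), from 5387 to 7293 CPM. Coding 3′ UTRs with an antisense value gave only 2.94 and 1.93 CPM of it, so it was mostly RNA of noncoding transcripts. The 623 made up 1.62% of the sense sum in Caco2 WT and 1.13% in PIWIL2 KO. In RNA from whole cultures, fewer cells with a fragment and less of it per cell cannot be told apart.

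A few genes held a large share of this RNA. EIF2AK3 alone held 28.9% of the sum in Caco2 WT and 24.2% in PIWIL2 KO, the 7 3′ UTRs with the highest means held 49.9% and 46.2%, and the 25 whose mean reached 0.3 CPM held 58.8% and 54.9%. Without EIF2AK3 the sums were 63.2 and 63.05 CPM, a log2 ratio of 0.00 (−0.14 to 0.14), and with all rows summed 94.42 and 90.6 CPM, a log2 ratio of −0.06 (−0.17 to 0.06), so the summed interval then held 0. With all rows summed, the same 7 3′ UTRs held 44.7% and 41.6%. The 598 3′ UTRs under 0.3 CPM summed to 36.6 and 37.46 CPM (log2 ratio 0.03, interval −0.15 to 0.22). The plot of PIWIL2 KO against Caco2 WT shows the few high values and the grid of single reads near the origin.

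**Figure D2:**
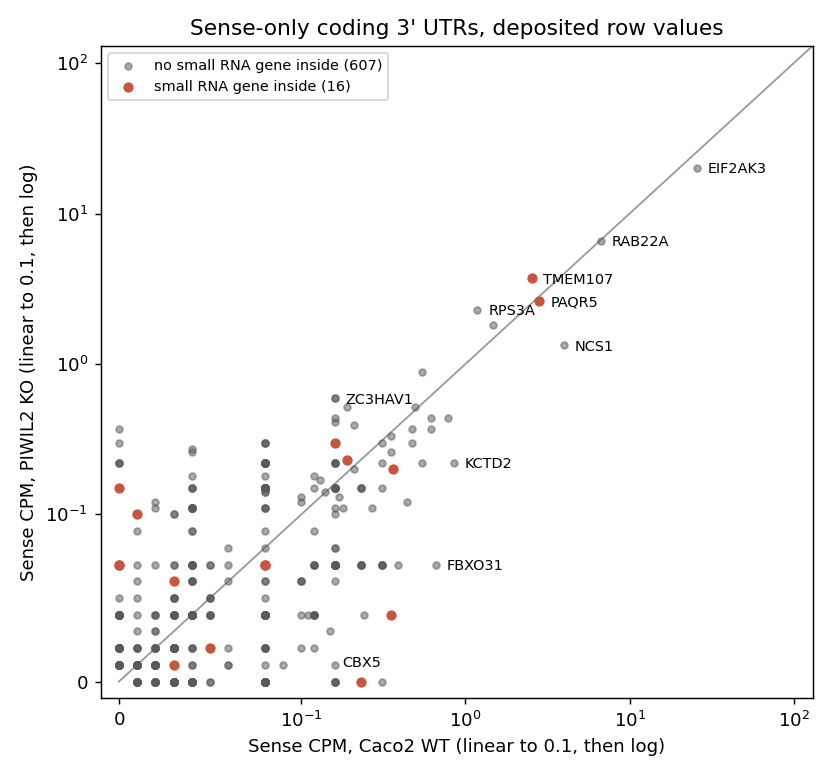
Sense CPM of each of the 623 3′ UTRs in PIWIL2 KO (vertical axis) against Caco2 WT (horizontal axis), both linear up to 0.1 CPM and logarithmic above, with the line of equal values and with the 16 3′ UTRs that hold a small RNA gene in red. EIF2AK3 lies at 25.68 and 20.08 CPM, and 431 of the 623 have both values at or below 0.1 CPM.

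EIF2AK3 encodes PERK, the kinase of the endoplasmic reticulum that phosphorylates the translation factor eIF2α under stress. Its 3′ UTR at chr2:88856259-88857256 (hg19, minus strand, 998 bases, 1 row) had 25.68 CPM in Caco2 WT against 20.08 CPM in PIWIL2 KO. This was the highest level of all 623 in both genotypes. The log2 ratio was −0.35, and the ratio of 0.782 had a counting interval of 0.662 to 0.919, from about 331 and 272 reads, which lies below 1. Per kilobase of 3′ UTR its level was 25.7 and 20.1 CPM. No annotated small RNA gene lay inside, and the annotation has a noncoding gene on the opposite strand.

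RAB22A encodes a small GTPase of early endosomes, and its 3′ UTR was the next in level by row, at chr20:56934760-56942563 (plus strand, 7804 bases, 1 row). With rows summed, NCS1 stood above it in Caco2 WT at 7.98 CPM, and TMEM107 in PIWIL2 KO at 7.40 CPM. It had 6.67 CPM in Caco2 WT against 6.57 CPM in PIWIL2 KO, with a ratio of 0.985 (0.723 to 1.34). Per kilobase, at 0.855 and 0.842 CPM, its level was further under that of EIF2AK3 than by CPM alone.

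NCS1, a calcium sensor first known from neurons, had the lowest ratio of the 7 3′ UTRs with the highest means. Its row at chr9:132995269-132999582 (plus strand, 4314 bases) had 3.99 CPM in Caco2 WT against 1.33 CPM in PIWIL2 KO, with a log2 ratio of −1.52. Summed over its 2 rows the values were 7.98 and 2.66 CPM, about 103 and 36 reads. The ratio of the sums was 0.333 (0.221 to 0.490), an interval that excludes both 1 and the ratio of 0.950 that equal read numbers give. No small RNA gene was annotated inside.

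The 3′ UTRs of TMEM107 and PAQR5, whose inner small RNA genes are shown above, stood next to RAB22A in level by row. TMEM107 had 2.54 CPM in Caco2 WT against 3.70 CPM in PIWIL2 KO per row, a ratio whose interval of 0.909 to 2.31 holds 1. Over its 2 rows the sums were 5.08 and 7.40 CPM and the interval, 1.06 to 2.03, lay above 1. PAQR5 had 2.82 and 2.63 CPM per row and 5.64 and 5.26 CPM over 2 rows, with a row ratio interval of 0.582 to 1.55. Where in the 3′ UTR the reads lay is not given by the table, so the share that comes from SNORD118 or from the Y RNA copy was not tested. No row was named SNORD118.

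RPS3A, a protein of the small ribosomal subunit, had 1.18 CPM in Caco2 WT against 2.29 CPM in PIWIL2 KO, about 15 and 31 reads. The log2 ratio was 0.90 and the ratio of 1.94 had an interval of 1.03 to 3.91. Its 3′ UTR at chr4:152024034-152024231 (plus strand) is only 198 bases long, which put its level per kilobase at 5.96 and 11.6 CPM, above those of RAB22A, PAQR5 and NCS1. The annotation counts all of it as coding in another transcript, and names 53 RPS3A pseudogenes that could share its reads.

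TNFRSF10D, a decoy receptor for the death ligand TRAIL, had 1.47 and 1.81 CPM (ratio interval 0.661 to 2.40). By row, the genes after it were all under 1 CPM in both genotypes. With rows summed, FBXO31 and TIMM23 reached 1.32 CPM in Caco2 WT, and TXNDC5 reached 1.17 CPM in PIWIL2 KO. PATJ, a scaffold protein of tight junctions, had 0.54 CPM in Caco2 WT against 0.89 CPM in PIWIL2 KO. MTPN, which regulates actin capping, had 0.78 and 0.44 CPM. The GTPase gene RALB had 0.62 and 0.44 CPM, and PDP2, a phosphatase that activates pyruvate dehydrogenase, had 0.62 and 0.37 CPM. The intervals of these 5 ratios all held 1, so no difference was detectable at this depth. The same was true of EIF4EBP2, a repressor of cap-dependent translation at 0.49 and 0.52 CPM, of EIF4B, a cofactor of the translation helicase at 0.47 and 0.30 CPM, and of SH3PXD2B, a podosome adaptor at 0.47 and 0.37 CPM.

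Of the 25 3′ UTRs past the minimum mean of 0.3 CPM, 10 were higher in PIWIL2 KO and 15 were lower, or 40.0% and 60.0%. Among all 153 regions of the table past that minimum, 70.6% were higher and 28.8% were lower. Only 26 coding 3′ UTRs passed it, so most of the 153 belong to noncoding transcripts or to the left-out block. Shares over the 153 are therefore not a norm for coding 3′ UTRs. Ratios of single 3′ UTRs were taken on the scale log2(CPM + 0.1), which understates the change of low values. Their median was −0.07 for the 25, against 0.49 for the 153 and 0.53 for the 128 that are not among the 25. Rescaling PIWIL2 KO so that the median of the 153 became 0 lowered its CPM by 0.49 on the log2 scale, before the pseudocount, and left 8 higher and 17 lower, as TNFRSF10D and EIF4EBP2 then turned below 0.

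**Figure D3:**
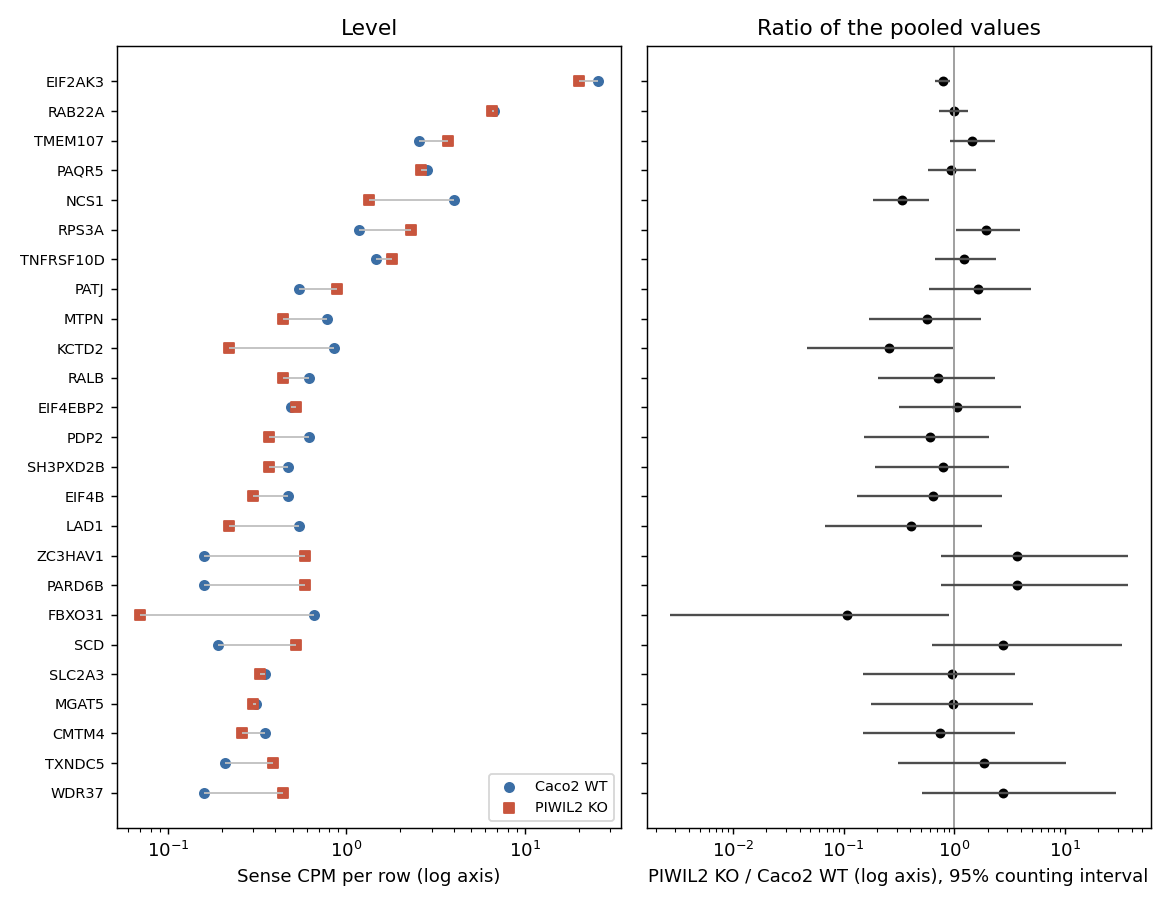
Sense CPM per row in Caco2 WT (circles) and PIWIL2 KO (squares), left, and the ratio PIWIL2 KO / Caco2 WT with its exact 95% counting interval, right, both on log axes, for the 25 3′ UTRs whose mean reached 0.3 CPM. The intervals of EIF2AK3, NCS1, KCTD2 and FBXO31 lie below 1, that of RPS3A lies above 1, and the rest hold 1.

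A counting interval above 1 was found for 1 of the 25, RPS3A, and an interval below 1 for 4, namely EIF2AK3, NCS1, KCTD2 and FBXO31. In the whole table past the minimum, 43.8% of regions had an interval above 1 and 9.15% an interval below 1. KCTD2, a BTB-domain protein, had 0.85 CPM in Caco2 WT against 0.22 CPM in PIWIL2 KO, about 11 and 3 reads, with a ratio interval of 0.0464 to 0.981 that nearly reaches 1. FBXO31, a subunit of a ubiquitin ligase, had 0.66 and 0.07 CPM per row. Over its 2 rows the sums were 1.32 and 0.14 CPM, and the interval was 0.0125 to 0.471.

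At least 2-fold higher in PIWIL2 KO were 4 of the 25, and at least 2-fold lower were 4, where the whole table had 28.8% and 7.84%. The 4 higher ones were ZC3HAV1, an antiviral zinc finger protein that binds RNA, PARD6B, a cell polarity protein, SCD, the desaturase that makes oleate, and WDR37, a WD-repeat protein. ZC3HAV1 and PARD6B each had 0.16 CPM in Caco2 WT against 0.59 CPM in PIWIL2 KO, about 2 and 8 reads, and their ratio intervals ran from 0.758 to 36.7. SCD had 0.19 and 0.52 CPM, and WDR37 had 0.16 and 0.44 CPM. None of these 4 intervals excluded 1. The 4 lower ones were NCS1, KCTD2, FBXO31 and LAD1, an epithelial anchoring filament protein with 0.54 and 0.22 CPM and an interval of 0.0679 to 1.78.

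The intervals of the other 4 of the 25 all held 1. SLC2A3, a glucose transporter, had 0.35 and 0.33 CPM, and MGAT5, which branches N-glycans, had 0.31 and 0.30 CPM. CMTM4, a membrane protein of the MARVEL family, had 0.35 and 0.26 CPM in the row counted, but 0.04 and 0.11 CPM in its other row, so its sums were 0.39 and 0.37 CPM. TXNDC5, a disulfide isomerase of the endoplasmic reticulum, had 0.21 and 0.39 CPM per row, and 0.63 and 1.17 CPM over its 3 rows. Just under the minimum by row lay JMJD1C, a protein of the histone demethylase family, with 0.16 and 0.41 CPM. Over its 2 rows JMJD1C had 0.32 and 0.82 CPM. TIMM23, the import channel of the inner mitochondrial membrane, also lay there, with 0.44 and 0.12 CPM per row.

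When the rows of 1 start were summed, 40 of the 3′ UTRs passed 0.3 CPM, 21 of them with several rows. Intervals above 1 were then found for 2, RPS3A and TMEM107, and below 1 for 7, which were EIF2AK3, NCS1, KCTD2, FBXO31, TIMM23, IGF2BP1 and CBX5. Among all 170 regions of the table that passed 0.3 CPM with rows summed, 40.0% had an interval above 1 and 17 of the 170, or 10%, an interval below 1. The last 3 of these were below the minimum by row. TIMM23 had 1.32 CPM in Caco2 WT against 0.36 CPM in PIWIL2 KO over its 3 rows (ratio interval 0.0806 to 0.789), and is named here after its values were seen. IGF2BP1, an RNA-binding protein that stabilises mRNAs, had 0.70 and 0.08 CPM over 2 rows (0.00241 to 0.762). CBX5 had 0.69 CPM, about 9 reads, and 0 CPM over 3 rows, and the interval of its ratio reached up to 0.481.

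Found in both genotypes were 409 of the 623, in Caco2 WT alone 103 and in PIWIL2 KO alone 111, or 65.7%, 16.5% and 17.8%. Of all 973 regions of the table with sense RNA, the shares were 70.4%, 14.9% and 14.7%. The highest of the 103 was FOXK1, a forkhead transcription factor, at 0.31 CPM and about 4 reads. The highest of the 111 was GRWD1, a protein of ribosome assembly, at 0.37 CPM and about 5 reads. Where the value in the genotype with RNA was at or under the 3 reads that a 0 allows, absence in the other genotype cannot be told from presence in both. The estimated number of reads was the same in both genotypes for 185 of the 623, and of those 98 had a lower and 30 a higher CPM in PIWIL2 KO.

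The 16 3′ UTRs with a small RNA gene inside summed to 6.93 CPM in Caco2 WT against 7.72 CPM in PIWIL2 KO, with a log2 ratio of 0.15 (−0.26 to 0.59). The other 607, which include the 10 that could not be placed, summed to 81.95 and 75.41 CPM, a log2 ratio of −0.12 (−0.25 to 0.01). Below TMEM107 and PAQR5 the values were small. QRFPR had 0.36 and 0.20 CPM, with a ratio interval of 0.0885 to 2.93 that holds 1. TPT1, the translationally controlled tumour protein, had 0.19 and 0.23 CPM per row, and 0.57 and 0.69 CPM over its 3 rows. The annotation puts a small nucleolar RNA gene named SNORA31 inside its 3′ UTR, at chr13:45910449-45910582. The row named SNORA31 had 1.32 and 1.70 CPM, but it starts outside this 3′ UTR, at another place.

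IGF2BP1, like CBX5, holds an annotated microRNA gene in its 3′ UTR. With rows summed, IGF2BP1 had 0.70 and 0.08 CPM and CBX5 0.69 and 0 CPM, about 9 reads each in Caco2 WT. Both were lower in PIWIL2 KO, unlike the sum of the small RNA hosts. The other hosts named had at most a few reads per row. TRIM25, a ubiquitin ligase of antiviral signalling, and POFUT1, which puts fucose on Notch, each had 0.08 and 0.07 CPM, which is 1 read in each genotype. PURB, a single-stranded DNA binding protein, had 0 and 0.15 CPM. ATP5MC3, a ring subunit of the mitochondrial ATP synthase, had 0.01 and 0.10 CPM in the row counted. The sums over the 3 rows at its start were 0.03 and 0.38 CPM. The Y RNA copy in its 3′ UTR matched RNY4 in 80 of 87 columns (92.0%).

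Of all 1395 coding genes with a symbol in the table, 587 (42.1%) had a 3′ UTR among the 623. Of the 623, 41.4% were higher and 49.1% lower in PIWIL2 KO with no minimum, against 44.4% and 47.8% of all 973 regions with sense RNA. Among the 623, 98 of the lower and 30 of the higher had equal estimated reads in both genotypes. For these the direction of the CPM is not a difference in reads. The 973, which include the 623, were not split in this way. The gene groups that follow are small, and their difference from these shares was not tested. Grouped by function, the 3′ UTRs of ribosomal proteins gave short RNA for 6 of 8 genes in the table, with 8 3′ UTRs that summed to 1.6 CPM in Caco2 WT against 2.6 CPM in PIWIL2 KO. Only RPS3A was past the minimum. Of the 8, 3 were higher and 4 were lower, and the others were RPS3, RPL13A, RPL39, RPS24 and RPL41, none above 0.1 CPM in a row. RPS3 is counted at more than 1 start, in overlapping blocks with 0.10 and 0.06 CPM each, which can hold the same reads. These blocks and RPL13A, all among the 4 lower, were estimated at 1 read in each genotype. Histone genes, whose mRNAs end in a short stem-loop and not in a poly(A) tail, gave short RNA for 7 of 9 genes. Their 8 3′ UTRs summed to 0.39 and 0.49 CPM, with 4 higher and 4 lower. Each was estimated at 1 read in each genotype, so no difference was detectable in any of them. Some had identical values, such as H3-4, H2BC4 and H2AC21 at 0.05 and 0.04 CPM. Whether such related genes share reads was not tested.

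Genes named as translation factors or their regulators had 10 of 13 genes among the 623, summing to 27.03 and 21.16 CPM, with 3 higher and 7 lower. This sum is mostly EIF2AK3, and of the rest only EIF4EBP2 and EIF4B passed the minimum. Of 20 genes of the PIWI pathway, 1 was in the table, EXD1, at 0 in every column. Of 13 genes of the microRNA machinery, 2 were in the table, and TNRC6B, which joins Argonaute proteins to the deadenylases, was among the 623 with 0.03 CPM against 0 in PIWIL2 KO.

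The epithelial label of the cells could be checked for only a few markers, as the table lists 2 of 9 epithelial markers, none of 10 enterocyte markers and 1 of 7 markers of other cell types. CDH1, which encodes E-cadherin, had 0.08 CPM in Caco2 WT against 0.30 CPM in PIWIL2 KO, about 1 and 4 reads. KRT8, an epithelial keratin, had 0.03 and 0 CPM in the coding rows, while a noncoding row at the same start had 0.11 and 0.29 CPM. PECAM1, an endothelial marker, was at 0 in every column.

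The 3′ UTRs with sense short RNA had a median length of 2943 bases (quartiles 1682 and 4603, 613 placed). Those at 0 in every column had a median of 2651 bases over 772, and all coding 3′ UTRs had 2787 bases. The ranges of lengths overlap widely. Over the 613, level and length had nearly no relation, with a Pearson correlation of −0.02 on log2 scales and a Spearman correlation of −0.04, both across 3′ UTRs of the same libraries. The plus strand held 310 of the 623 and the minus strand 313, and chromosome 1 held the most, 69.

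**Figure D4:**
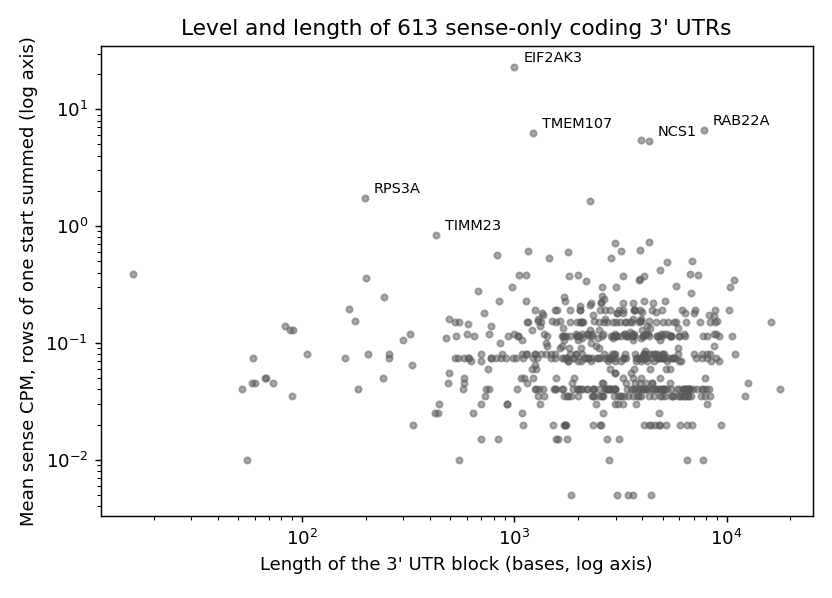
Mean sense CPM of both genotypes, summed over the rows of a start (vertical axis, log), against the length of the 3′ UTR in bases (horizontal axis, log) for the 613 placed 3′ UTRs. EIF2AK3, at 998 bases, lies far above the rest, and RAB22A, at 7804 bases, is the highest of the long ones.

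At the edge of the choice, the lowest value above 0 was 0.01 CPM, held by 34 3′ UTRs. Of the 79 3′ UTRs left out for an antisense value, the lowest such value was also 0.01 CPM, and 62 had at most 1 antisense read. Their sense sums were 2.94 CPM in Caco2 WT against 1.93 CPM in PIWIL2 KO, with a log2 ratio of −0.58 (−1.40 to 0.14).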

How the data were processed

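Short RNAs were sequenced in single-end reads from 6 samples, 3 of each genotype. According to the methods and the submitters' processing notes, adapters were removed by Cutadapt 1.15 and the piPipes small RNA steps gave the CPM that the authors deposited, scaled to reads mapped uniquely to hg19; Bowtie2 was also named. The deposited table has 4 value columns (sense and antisense for each genotype) and 3437 rows named as 3′ UTR blocks, of coding and noncoding transcripts. It holds 1 value per genotype, so no test between genotypes could be made. No column of another sample was left unused (0).

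The members and gene lists were chosen with earlier results of these data known. Log2 ratios used a pseudocount of 0.1 CPM, and counts of direction a minimum mean of 0.3 CPM over both genotypes. Reads were estimated from the step between low values, taken as 1 read of pooled libraries, and ratio intervals are exact (Clopper-Pearson, 95%) for these estimates. Named were the 15 members with the highest mean, those past the minimum with a 2-fold change (up to 10 each way), listed genes past the minimum, and up to 10 holding a small RNA gene; all other genes named were added after their values were seen. Of the 623, 618 matched a gene symbol in RefSeq (GRCh38.p14, used for names and microRNA sequences). Ends and inner genes came from GENCODE 44 mapped to GRCh37, the build of hg19, where 613 could be placed, 455 with the same start and the rest by a start 3 bases off or, on the minus strand, within 100 bases. The calculation was run on simulated data, drawn as whole reads of 1 pool with at least 1 read expected per 3′ UTR. Of 334 simulated single-row 3′ UTRs, 167 were changed 4-fold. Of the intervals 98.7% held the true ratio, and 19.9% of changed and 0.654% of unchanged 3′ UTRs had an interval without 1. Averaged libraries and values under 1 read were not simulated, so this run cannot show whether the real steps are reads. Alternatives were other pseudocounts (0.01 and 1 CPM), minima, scalings and ways of counting rows. Python 3.11.15 and scipy 1.17.1 were used. Some members are counted in the totals but not reported here by name.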

Additional observations from a re-analysis of the deposited data

How the results depend on the processing

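Over 75 alternative values of the main results, 51 stayed close to the reported value, 24 moved and 0 reversed. Rescaling PIWIL2 KO to equal sense sums gave a log2 ratio of −0.53 for the sum and −0.44 for the median, and rescaling to a median of 0 gave −0.58 and −0.50; both left 2 at least 2-fold higher. These settings shift the log2 of the CPM itself by −0.43 and −0.49. Of the 29 named genes, EIF2AK3 was labelled as moved, to −0.78 and −0.84, and RAB22A, to −0.50 under the second. That label did not mark every large change, and genes with few reads shifted most. With a pseudocount of 0.01 CPM, CBX5 went from −1.72 to −4.58 and PURB from 1.32 to 4. With 1 CPM, FBXO31 went from −2.16 to −0.63. Under both rescalings TNFRSF10D, EIF4EBP2 and TPT1 turned from above 0 to below 0. With no minimum, 258 were higher and 306 lower, 25 and 22 of them at least 2-fold. Of these 258 and 306, 30 and 98 had equal estimated reads in both genotypes. With a minimum of 1 CPM, 3 were higher and 4 lower, 0 and 1 at least 2-fold. A pseudocount of 1 CPM left 0 at least 2-fold higher and 1 lower. Counting every row gave 1212 members, 812 in both genotypes, 198 in Caco2 WT only and 202 in PIWIL2 KO only. Summing the rows of a start, chosen after seeing the data, gave 16 higher and 24 lower, 7 and 10 at least 2-fold. No paired analysis was possible because the columns hold 1 value per genotype and carry no replicate number, and leaving out a replicate was not run for the same reason. Depth limits all members under about 10 reads, and a split of reads over rows makes the row intervals wider than the reads allow.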
